A study of Mus musculus with 24 samples.

Results

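Livers of Villin-Cre and floxed mice given vehicle were compared by RNA sequencing, 3 libraries against 3, which are 6 of the 24 libraries of the series. The libraries were chosen by tissue, genotype and treatment as labelled, and every gene with enough reads was compared. All mice were C57BL/6 and had undergone a 75% intestinal resection. The floxed group (Abca1 fl/fl) had loxP sites around part of Abca1 and no recombinase, and the Villin-Cre group (Abca1 fl/fl X Villin-Cre) carried in addition Cre recombinase under the Villin promoter, which is active in the epithelium of the intestine. Both groups are labelled as given vehicle. The sample records list 0.5% carboxymethyl cellulose, 5 weeks of dosing and 10 weeks after resection for every library of the series. How often vehicle was given is not stated. Other groups received GW3965, suspended in 0.5% carboxymethyl cellulose and given by mouth 2 times a week at 1 mg/kg/day in the last 5 of the 10 weeks after surgery. The liver is outside the intended site of deletion, so the comparison asked how the liver differs when the transporter is deleted in the gut. No group had an intact bowel, and no group carried Cre without the floxed allele.

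ABCA1 moves cholesterol and phospholipid from cells onto apolipoprotein A-I and so starts the formation of high-density lipoprotein (HDL), in hepatocytes as well as in enterocytes. The liver makes cholesterol and fatty acids under the transcription factors SREBP2, SREBP1 and ChREBP, turns cholesterol into bile acids, and takes up bile acids, lipids and microbial products that reach it from the gut through the portal vein. The oxysterol receptors LXR and the bile acid receptor FXR tie these pathways together: LXR induces sterol export and fatty acid synthesis, and FXR lowers bile acid synthesis.

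Liver libraries held 26.43 to 32.28 M assigned reads (M, mega), and the vehicle groups 27.6 to 30.43 M (floxed) and 27.98 to 31.94 M (Villin-Cre). Levels are given as CPM, the reads of a gene relative to the library's total, rescaled by the median gene ratio between libraries. The Villin-Cre libraries had the larger size factors (0.175 to 0.189 on the log2 scale, against -0.113 to -0.103), and the 100 most abundant genes took 31.9 to 32.3% of their reads against 36.8 to 37.0% in floxed libraries. Libraries of a group were close to each other: their variance was 2.58 to 2.84 times the Poisson variance in 6 pairs within the vehicle groups and 20.9 to 22.2 times in 9 pairs between them. No label says which animal gave which library. The p-values thus rest on library-to-library spread, which may be technical, and genotype and animal cannot be told apart where the libraries of a group come from 1 animal. Calls were therefore repeated with close libraries averaged to 1 unit. The spread then rests on 1 degree of freedom, from the floxed GW3965 group, and a lost call does not show that a gene did not differ. A kept call does not show that a difference recurs across animals, because each vehicle group is then 1 unit. Genes chosen for a large fold change are also the most likely to keep a call.

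Of 17529 genes tested, 3781 were higher and 3900 lower in Villin-Cre liver at an adjusted p under 0.05 (limma, Benjamini-Hochberg), which is 43.8% of all tested genes (21.6% higher and 22.2% lower). Of these, 598 were at least 2-fold higher and 829 at least 2-fold lower. Counts of higher and lower genes in a list below are to be read beside the shares of 21.6% and 22.2%. The 3 libraries of each group did not overlap for 10350 genes, or 59.0%. The median log2 fold change of all genes was 0.01. On the deposited scale, without the rescaling, the median was 0.26, and 79.3% instead of 49.2% of the called genes were higher. Of 17520 genes tested on that scale, 7894 were higher and 2057 lower, so counts of a list on it are to be read beside these. When close libraries were averaged, calls fell to 108 higher and 270 lower genes (2.16%), and 377 of these 378 had been called the same way above.

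**Figure D1:**
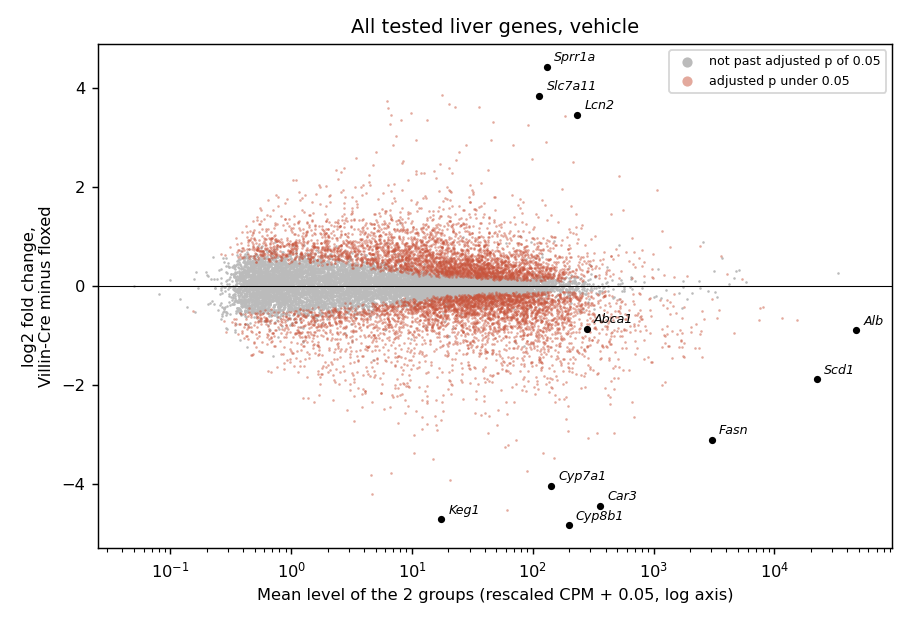
Each point is 1 of 17529 tested liver genes, with the mean rescaled CPM of the vehicle groups on a log axis and the log2 fold change (Villin-Cre minus floxed) on the vertical axis. Red points passed an adjusted p of 0.05, grey points did not, and the named genes in black include Sprr1a at 4.44 and Cyp8b1 at -4.84.

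The floxed gene itself was lower in Villin-Cre liver. Abca1 (ENSMUSG00000015243, chromosome 4, 53030787 to 53159895, minus strand, GRCm38) stood at 354, 368 and 362 CPM in floxed liver and at 199, 199.7 and 197 CPM in Villin-Cre liver. All Villin-Cre libraries were below all floxed libraries, with a log2 fold change of -0.86 (SE 0.039, adjusted p = 2.8e-10 in limma). On the deposited scale the difference was -0.57, and with close libraries averaged it did not pass (-0.86, adjusted p = 0.15). These are sums over the whole gene, so reads from exons outside the floxed part are included. In the ileum of the same treatment groups, tested in a separate table, Abca1 stood at 50.6 ± 2.06 CPM (floxed) and 29.8 ± 2.71 CPM (Villin-Cre; SD, n = 3). Vil1, whose promoter drives Cre, stood at 0.94, 0.706 and 0.914 CPM in floxed liver and 1.198, 1.496 and 1.19 CPM in Villin-Cre liver, from 20 to 54 reads a library (0.41, SE 0.212, adjusted p = 0.14 in limma, and 0.61 with adjusted p = 0.023 on the deposited scale). In the ileum Vil1 was at 1855 ± 54.6 and 2828 ± 65.1 CPM.

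Among the 15 largest increases was Sprr1a, a small proline-rich protein of stressed epithelia, which stood at 11.7, 10.8 and 10.9 CPM in floxed liver and at 257, 248 and 249 CPM in Villin-Cre liver, a log2 fold change of 4.44 (SE 0.206, adjusted p = 3.9e-10 in limma). Slc7a11, the cystine importer that feeds glutathione synthesis, stood at 12.9, 15.3 and 14.6 CPM against 207, 214 and 218 CPM (3.86, SE 0.126). Lcn2, an iron-siderophore binding protein of the acute phase, stood at 37.4, 38.0 and 39.0 CPM against 432, 434 and 417 CPM (3.47, SE 0.084). Libraries without overlap were a condition for choosing these genes, and 59.0% of all tested genes had them. The other large increases were in Ahnak2 (3.87), Dlgap2 (3.74), Pmm1 (3.69), Nupr1 (3.63), Elovl7 (3.63), Wfdc3 (3.60), Fosl1 (3.50), Cldn4 (3.47), Lrp8 (3.37) and Slc24a3 (3.37). Nupr1 is a stress-induced chromatin protein, Fosl1 a subunit of the transcription factor AP-1, Cldn4 a tight-junction protein of duct epithelium and Lrp8 a lipoprotein and reelin receptor.

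The metallothioneins Mt1 and Mt2, cysteine-rich proteins that bind zinc and copper, were both among the 15 largest increases. Their start sites lie near each other on chromosome 8 in the same orientation, and the 250 bases before each start are shown because both genes moved together. The windows are from RefSeq (GRCm38.p6, chr8:94178839-94179088 and chr8:94172368-94172617, plus strand). Capitals mark the core of the metal response element, searched as TGCACNC or TGCGCNC on both strands.
Mt1: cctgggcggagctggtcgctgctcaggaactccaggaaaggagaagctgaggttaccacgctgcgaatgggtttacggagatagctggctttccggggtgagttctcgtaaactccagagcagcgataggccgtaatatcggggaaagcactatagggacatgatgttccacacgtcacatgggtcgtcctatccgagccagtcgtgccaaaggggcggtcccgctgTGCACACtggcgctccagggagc
Mt2: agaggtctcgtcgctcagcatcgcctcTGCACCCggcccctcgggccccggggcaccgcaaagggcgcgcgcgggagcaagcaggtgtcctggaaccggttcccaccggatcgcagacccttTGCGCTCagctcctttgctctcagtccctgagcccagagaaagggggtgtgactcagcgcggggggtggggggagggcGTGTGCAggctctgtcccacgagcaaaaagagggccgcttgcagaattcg
Mt1 stood at 28.6, 30.9 and 33.3 CPM in floxed liver and at 338, 341 and 339.7 CPM in Villin-Cre liver (3.44, SE 0.113, adjusted p = 1.4e-11 in limma). Mt2 stood at 13.0, 16.4 and 15.2 CPM against 221, 216 and 205 CPM (3.81, SE 0.077, adjusted p = 1.6e-13). Groups without overlap were a condition for choosing both genes. The core was found in 6 of the 13 matched members of the metal list, and in 32.9% of all tested genes with a window. Other genes of that list did not share the direction: of 18 tested members 6 were higher and 7 lower (median -0.03). On the deposited scale 9 were higher and 4 lower (median 0.25). The shares of all tested genes were 21.6% and 22.2%, and on the deposited scale 7894 and 2057 of 17520. Slc30a10, a manganese exporter whose window also holds the core, fell from 27.6, 30.0 and 28.4 CPM to 3.18, 3.46 and 3.48 CPM (-2.91, SE 0.226, adjusted p = 9.1e-08). Hamp, which encodes the iron hormone hepcidin, stood at 627, 581 and 599 CPM against 494, 490.5 and 483 CPM (-0.30), a difference of -0.01 on the deposited scale.

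Among the 15 largest decreases was Car3, a cytosolic carbonic anhydrase, which stood at 678, 694 and 688 CPM in floxed livers and at 31.2, 32.0 and 30.3 CPM in Villin-Cre liver, a log2 fold change of -4.44 (SE 0.059, adjusted p = 1.7e-15 in limma). Inmt, a methyltransferase acting on indoleamines, stood at 164, 165 and 169 CPM against 12.1, 11.6 and 12.0 CPM (-3.74, SE 0.122). Serpina6, the corticosteroid carrier of plasma, stood at 220.5, 225 and 224 CPM against 22.2, 20.9 and 20.4 CPM (-3.37, SE 0.174). Separate groups were a condition for choosing these genes too. The remaining large decreases were in Keg1 (-4.71), Chrna4 (-4.52), Slc17a8 (-3.93) and Cyp4f14 (-3.21), and in genes of the groups described next. With close libraries averaged, 14 of the 15 named increases and 10 of the 15 named decreases still passed. Those that did not were Lrp8, Chrna4, Elovl3, Cyp4a12b, Mup3 and Thrsp.

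**Figure D2:**
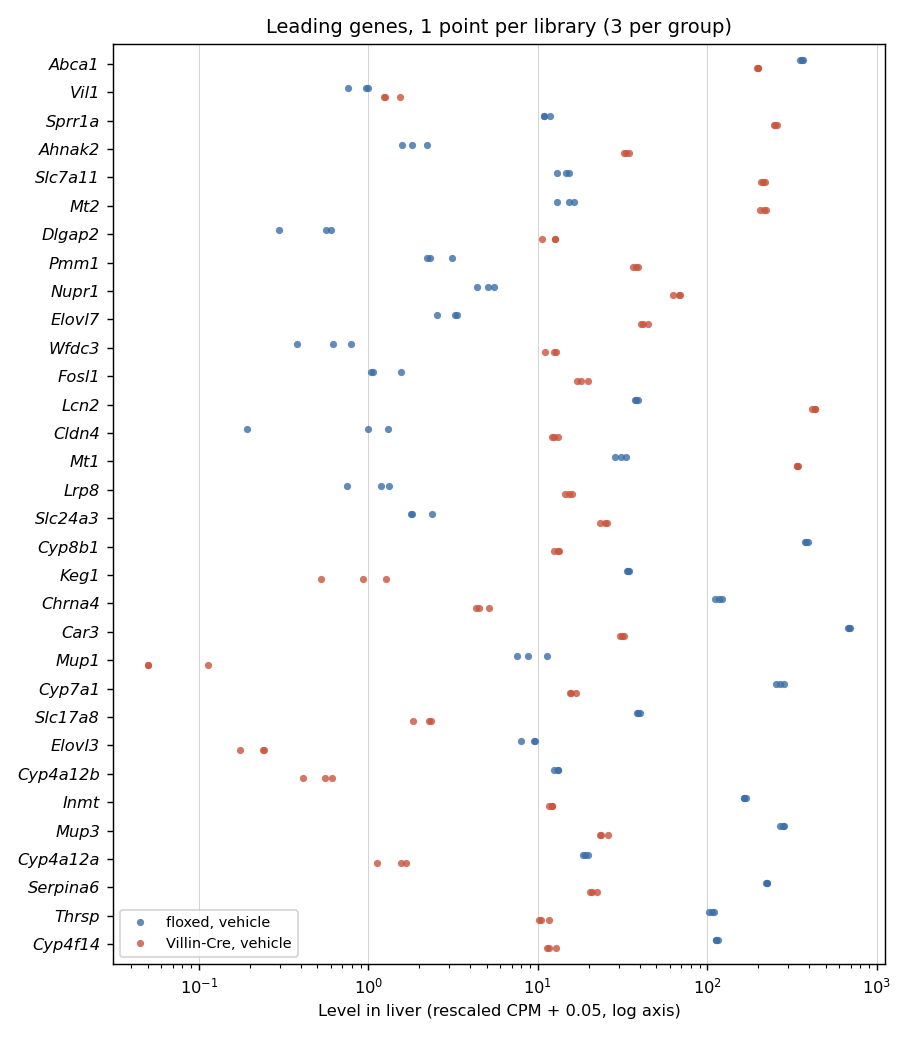
Level of Abca1, Vil1 and the 30 leading genes in each of the 3 floxed and 3 Villin-Cre liver libraries given vehicle, as rescaled CPM + 0.05 on a log axis. The 30 leading genes were chosen to have no overlap between groups, as 59.0% of all tested genes had none. Sprr1a stood at 10.8 to 11.7 against 248 to 257 CPM and Cyp8b1 at 378 to 390.2 against 12.4 to 13.3 CPM.

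Genes of bile acid synthesis fell as a group. Of 16 tested members, 14 were lower and 1 higher, with a median log2 fold change of -1.04 against 0.01 for all genes. Cyp8b1, the sterol 12-alpha-hydroxylase that sets the share of cholic acid, stood at 390.2, 378 and 381 CPM in floxed liver and at 13.1, 12.4 and 13.3 CPM in Villin-Cre liver (-4.84, SE 0.165, adjusted p = 1.8e-11 in limma). Cyp7a1, the rate-limiting enzyme of the classical pathway, stood at 256, 283 and 267 CPM against 16.7, 15.7 and 15.4 CPM (-4.03, SE 0.245, adjusted p = 6.6e-09). Both are among the 15 largest decreases, which were chosen to have no overlap between groups. Lower too were Akr1d1 (-2.05), the alternative-pathway enzymes Cyp7b1 (-1.16) and Cyp27a1 (-0.95), and the conjugating enzymes Baat (-1.34) and Slc27a5 (-1.23). Nr1h4, which encodes FXR, stood at 106, 119 and 109 CPM against 53.9, 51.1 and 53.02 CPM (-1.07, SE 0.053). The 1 member that rose was Nr0b2, which encodes SHP, a repressor that FXR induces: 16.0, 16.5 and 18.1 CPM against 27.1, 27.6 and 28.8 CPM (0.71, SE 0.077, adjusted p = 3.3e-06). Both subunits of the receptor for the gut hormone FGF15 were lower, Fgfr4 by a log2 change of -0.82 and Klb of -1.35. With close libraries averaged, 4 of the 14 lower genes passed.

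Bile acid importers were lower in 3 of 4 cases, whereas exporters moved in both directions. Slc10a1 (NTCP), which imports bile acids from portal blood, stood at 340.1, 324 and 321 CPM in floxed livers, against 60.0, 60.0 and 62.5 CPM in Villin-Cre liver (-2.42, SE 0.049). The importers Slco1b2 (-1.77) and Slco1a4 (-0.80) were also lower, while Slco1a1 (-0.83) did not pass. Abcb11 (BSEP), the canalicular export pump, stood at 702, 706 and 716 CPM against 179.7, 186.5 and 191 CPM (-1.93, SE 0.04). The basolateral exporter Abcc4 rose from 27.1, 27.2 and 29.7 CPM to 169, 166.5 and 173 CPM (2.58, SE 0.256, adjusted p = 1.3e-06 in limma), without passing when close libraries were averaged (adjusted p = 0.072). In all 3 of these genes the groups were separate. Of 13 tested transporters, 4 were higher and 5 lower, beside 21.6% and 22.2% of all tested genes. Their median of -0.08 changed sign on the deposited scale (0.02).

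Genes of cholesterol synthesis and uptake fell in nearly every step. Of 24 tested members, 23 were lower and none higher, with a median of -1.68. The window before the start of Hmgcs1 is shown because this enzyme, which makes HMG-CoA, is a classical SREBP2 target and its window was the only 1 of 16 matched on this list with a sterol response core. Capitals mark TCACNCCAC, searched on both strands, which 1.33% of tested genes with a window hold (RefSeq, GRCm38.p6, chr13:119690101-119690350, plus strand).
Hmgcs1: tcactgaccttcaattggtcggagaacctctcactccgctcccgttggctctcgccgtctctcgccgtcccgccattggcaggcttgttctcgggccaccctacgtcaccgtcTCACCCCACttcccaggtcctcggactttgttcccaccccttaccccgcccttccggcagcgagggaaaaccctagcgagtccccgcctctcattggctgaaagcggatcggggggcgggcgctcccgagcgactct
Hmgcs1 stood at 1092, 1107 and 1148 CPM in floxed liver and at 219, 219.7 and 218 CPM in Villin-Cre liver (-2.35, SE 0.382, adjusted p = 1.6e-04 in limma). Every Villin-Cre library was below every floxed library. Insig1, the sterol-sensitive anchor of SREBP, was at -2.25, and Srebf2 itself at -0.51, or -0.22 on the deposited scale, where it did not pass (adjusted p = 0.22). The 1 gene of the list that did not pass was Tmem97 (-0.26, or 0.03 on the deposited scale). None of the 23 passed with close libraries averaged. Floxed GW3965 replicate 1, whose distance from its group is the spread of that fit, had 482 CPM of Hmgcs1 against 2109 and 2085 CPM in the other floxed GW3965 libraries. The summed level of the list was 5139 to 12600 CPM in the 3 floxed GW3965 libraries and 8662 to 8665 CPM in the 3 floxed vehicle libraries.

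Fatty acid and triglyceride synthesis fell to a similar degree. Of 22 tested members, 21 were lower and none higher, with a median of -1.70. Scd1, which desaturates stearate to oleate, stood at 35215, 35292 and 35526 CPM in floxed liver and at 9556, 9667 and 9584 CPM in Villin-Cre liver (-1.88, SE 0.07, adjusted p = 3.9e-11 in limma). Fasn, the fatty acid synthase, stood at 5436, 5413 and 5385 CPM against 638, 631.5 and 616 CPM (-3.10, SE 0.248, adjusted p = 1.3e-07). Srebf1 stood at 588, 589.8 and 586 CPM against 278, 271 and 260.5 CPM (-1.12, SE 0.041), and Mlxipl, which encodes ChREBP, at 323, 332 and 313 CPM against 100.5, 107 and 101 CPM (-1.65, SE 0.071). The 3 libraries of a group differed by a small part of the distance between groups. Acly (-2.64), Acss2 (-3.08), Elovl6 (-2.23), Pklr (-2.35) and Thrsp (-3.25), which supply acetyl-CoA, elongate fatty acids or accompany lipogenesis, were lower as well. Lpin1 was the 1 member that did not pass (-0.51). With close libraries averaged, 4 members passed.

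Lipid droplet genes did not follow lipogenesis. Plin2, the coat protein of droplets, stood at 1031, 967 and 996 CPM in floxed livers, against 1738, 1720 and 1698 CPM in Villin-Cre liver (0.78, SE 0.066, adjusted p = 2.1e-07 in limma). Cidec, which promotes droplet fusion, stood at 59.9, 60.5 and 60.9 CPM against 194, 199 and 175 CPM (1.64, SE 0.374, adjusted p = 0.0024). Both were higher in every Villin-Cre library. Of 14 tested members, 6 were higher and 5 lower, beside 21.6% and 22.2% of all tested genes. Among the lower were Cideb (-1.19), Fitm1 (-2.30) and G0s2 (-1.33).

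Genes of sterol efflux and HDL formation were mostly lower. Of 20 tested members, 16 were lower and 1 higher, with a median of -0.76. The HDL apolipoprotein genes Apoa1 (9352, 9083 and 8926 CPM against 5716, 5735 and 5626 CPM) and Apoa2 differed by -0.68 and -1.44 on the log2 scale. Lcat, which esterifies cholesterol on HDL, was at -0.90, Lipc, the hepatic lipase, at -1.50 and Pltp, the phospholipid transfer protein, at -1.23. Abcg5 and Abcg8, the paired exporters of sterol into bile, were at -0.69 and -0.82. The 1 gene that rose was Abcg1, at 37.3, 38.6 and 35.8 CPM against 46.9, 47.7 and 47.9 CPM (0.35, SE 0.057, adjusted p = 1.7e-04 in limma). Scarb1, the HDL receptor, was at -0.21, but at 0.08 on the deposited scale (adjusted p = 0.35). Of 21 genes on the LXR target list, some of which are shared with the lists above, 15 were lower and 1 higher, with a median of -0.82. The receptor gene Nr1h3 was at -0.14, but at 0.15 on the deposited scale, where it passed in that direction.

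Of 24 genes of the PPAR-alpha and fatty acid oxidation list, 21 were lower and 1 higher (Acot2, 0.65), with a median of -0.79. Fabp1, the fatty acid binding protein of hepatocytes, was at -1.99 and Cpt1a, the carnitine transferase of the mitochondrial outer membrane, at -0.49. Ppara itself was at -0.21, and at 0.08 on the deposited scale, where it did not pass (adjusted p = 0.29). Fgf21, a fasting hormone of the liver, stood at 89.3, 100.8 and 88.1 CPM against 31.7, 29.0 and 30.0 CPM (-1.60, SE 0.207). All 31 tested nuclear genes of the respiratory chain were lower, within -0.86 and -0.37, with a median of -0.64, and 27 were lower on the deposited scale. None of the 31, and 1 of the 21 lower oxidation genes, passed with close libraries averaged. Mitochondrially encoded genes showed a median of -0.21 that turned to 0.08 on the deposited scale. The share of reads from the mitochondrial genome was 2.05 to 2.22% in floxed and 2.13 to 2.21% in Villin-Cre libraries.

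Glucose, drug and nitrogen metabolism showed the same direction, with exceptions. Of 20 genes of glucose production and use, 13 were lower and 3 higher (median -0.61), beside 22.2% and 21.6% of all tested genes. G6pc, which releases glucose, stood at 324, 328 and 334.5 CPM in floxed livers, against 52.2, 48.2 and 51.6 CPM in Villin-Cre liver (-2.69, SE 0.105, adjusted p = 6.0e-11 in limma). Fbp1, of gluconeogenesis, was at -2.20 and Slc2a2, the glucose transporter, at -1.74. Pck1 rose slightly (0.21, adjusted p = 0.027). With close libraries averaged, 7 of the 13 passed.

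Of 29 tested genes of the PXR, CAR and cytochrome P450 list, 15 were lower and 2 higher (median -0.93). Cyp2c29 stood at 306, 299.8 and 303 CPM against 62.1, 60.4 and 63.0 CPM (-2.28, SE 0.12, adjusted p = 1.3e-09 in limma), Cyp2e1 was at -1.41 and Cyp3a11 at -1.10. The receptor genes Nr1i2 (-0.13) and Nr1i3 (-0.12) did not pass, and both were above 0 on the deposited scale (0.16 each). Cyp2a5 rose, with 234, 232 and 240.1 CPM against 652, 646 and 637 CPM (1.45, SE 0.40, adjusted p = 0.0086). Reads of close P450 paralogs may have been divided between them by the counting. Periportal genes, which include the urea cycle, were lower in 14 of 20 cases (median -0.80) and pericentral genes in 14 of 19 (median -0.61), so both zones of the lobule were represented. Otc of the urea cycle was at -1.92 and Glul, the pericentral glutamine synthetase, at -1.11, whereas Arg1 did not pass (-0.10, or 0.19 on the deposited scale).

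Genes of secreted plasma proteins did not move as 1 group. All 26 tested genes of complement and coagulation were lower, with a median of -0.82, and 23 of them were lower on the deposited scale. Mbl2, a lectin that starts complement, stood at 267, 260.3 and 264 CPM against 94.7, 94.5 and 96.0 CPM (-1.47, SE 0.058, adjusted p = 7.4e-11 in limma), F2, prothrombin, was at -0.81 and C3 at -0.41, the last without passing on the deposited scale (-0.13, adjusted p = 0.2). Acute phase proteins moved both ways, with 10 of 26 higher and 8 lower (median 0.10), or 15 higher and 6 lower on the deposited scale. The shares of all tested genes were 21.6% and 22.2%, and on the deposited scale 7894 and 2057 of 17520. Lcn2 was joined by Cd14, the endotoxin co-receptor, at 8.73, 7.70 and 7.82 CPM against 83.8, 87.3 and 84.1 CPM (3.32, SE 0.111, adjusted p = 1.6e-11), by Orm2 (1.95) and by Saa1 (1.46). Crp (-1.42), Ttr (-1.43) and the fibrinogen chains Fga (-0.96), Fgb (-0.83) and Fgg (-0.98) were lower. Hp, haptoglobin, did not pass (-0.09, or 0.19 on the deposited scale).

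Of 29 tested genes of the growth hormone, STAT5 and sex-biased list, which holds male-biased and female-biased genes, 18 were lower and none higher (median -1.07). Averaging close libraries left 4 of them called. Ghr, the growth hormone receptor, stood at 277, 301 and 309 CPM in floxed livers, against 95.6, 95.0 and 95.5 CPM in Villin-Cre liver (-1.63, SE 0.064, adjusted p = 6.3e-11 in limma). Igf1 was at -0.94, Igfals at -1.67 and Stat5b at -0.68. Mup3, a major urinary protein, stood at 267, 283 and 279 CPM against 25.9, 23.2 and 23.5 CPM (-3.49), and the male-biased Cyp4a12a (-3.38), Cyp4a12b (-3.78) and Elovl3 (-3.82) were lower as well. Mup1 had 289, 246 and 205 reads in floxed libraries and 0, 0 and 2 reads in Villin-Cre libraries. Mup genes and the Cyp4a12 pair are near-identical copies, so their single values are uncertain. The Y-linked genes Eif2s3y, Ddx3y and Uty did not pass (-0.13, -0.04 and 0.02), while Kdm5d, also on the Y chromosome, was called (-0.21). On the deposited scale the first 3 were at 0.16, 0.25 and 0.30, and the last 2 of these passed.

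Stress programmes rose in part. Of 18 genes of the NRF2 list, which defends against oxidants, 11 were higher and 1 lower (median 0.74). Srxn1, sulfiredoxin, stood at 177, 185.5 and 185 CPM against 858, 869 and 839 CPM (2.22, SE 0.081, adjusted p = 3.3e-11 in limma), and Gsta1, a glutathione transferase, at 28.0, 32.1 and 29.7 CPM against 229, 226.5 and 230.1 CPM (2.91, SE 0.382). Gclc, the catalytic subunit of glutathione synthesis, rose (0.73), whereas its partner Gclm was at -0.23, and at 0.06 on the deposited scale (adjusted p = 0.23). An antioxidant response core, searched as TGACNNNGC on both strands, lay in the 250 bases before the start of 4 of 16 matched members and of 13.8% of tested genes with a window. Of 18 ATF4 targets 11 were higher and 4 lower (median 0.80), with Aldh1l2 at 2.15, Psat1 at 1.26 and Atf3 at 1.20. Of all tested genes 21.6% were higher and 22.2% lower, so the share of lower ATF4 targets was like that of all genes. Atf4 itself was at -0.28, a value near 0 (0.01) on the deposited scale.

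Of 22 genes of endoplasmic reticulum chaperones and the unfolded protein response, 3 were higher and 9 lower (median -0.10). On the deposited scale this turned to 9 higher and 6 lower (median 0.18). The shares of all tested genes were 21.6% and 22.2%, and on the deposited scale 7894 and 2057 of 17520. Of 15 p53 targets 10 were higher and 2 lower (median 0.73), among them Cdkn1a, the cell cycle inhibitor p21, at 50.01, 50.7 and 54.4 CPM against 109.9, 115 and 114 CPM (1.12, SE 0.052, adjusted p = 3.8e-10 in limma). Immediate early genes rose in 15 of 20 cases with none lower (median 1.15). Myc stood at 25.3, 24.4 and 24.9 CPM against 73.6, 75.5 and 70.1 CPM (1.53, SE 0.055, adjusted p = 2.6e-11), Klf4 was at 2.00 and Dusp1 at 1.77.

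**Figure D3:**
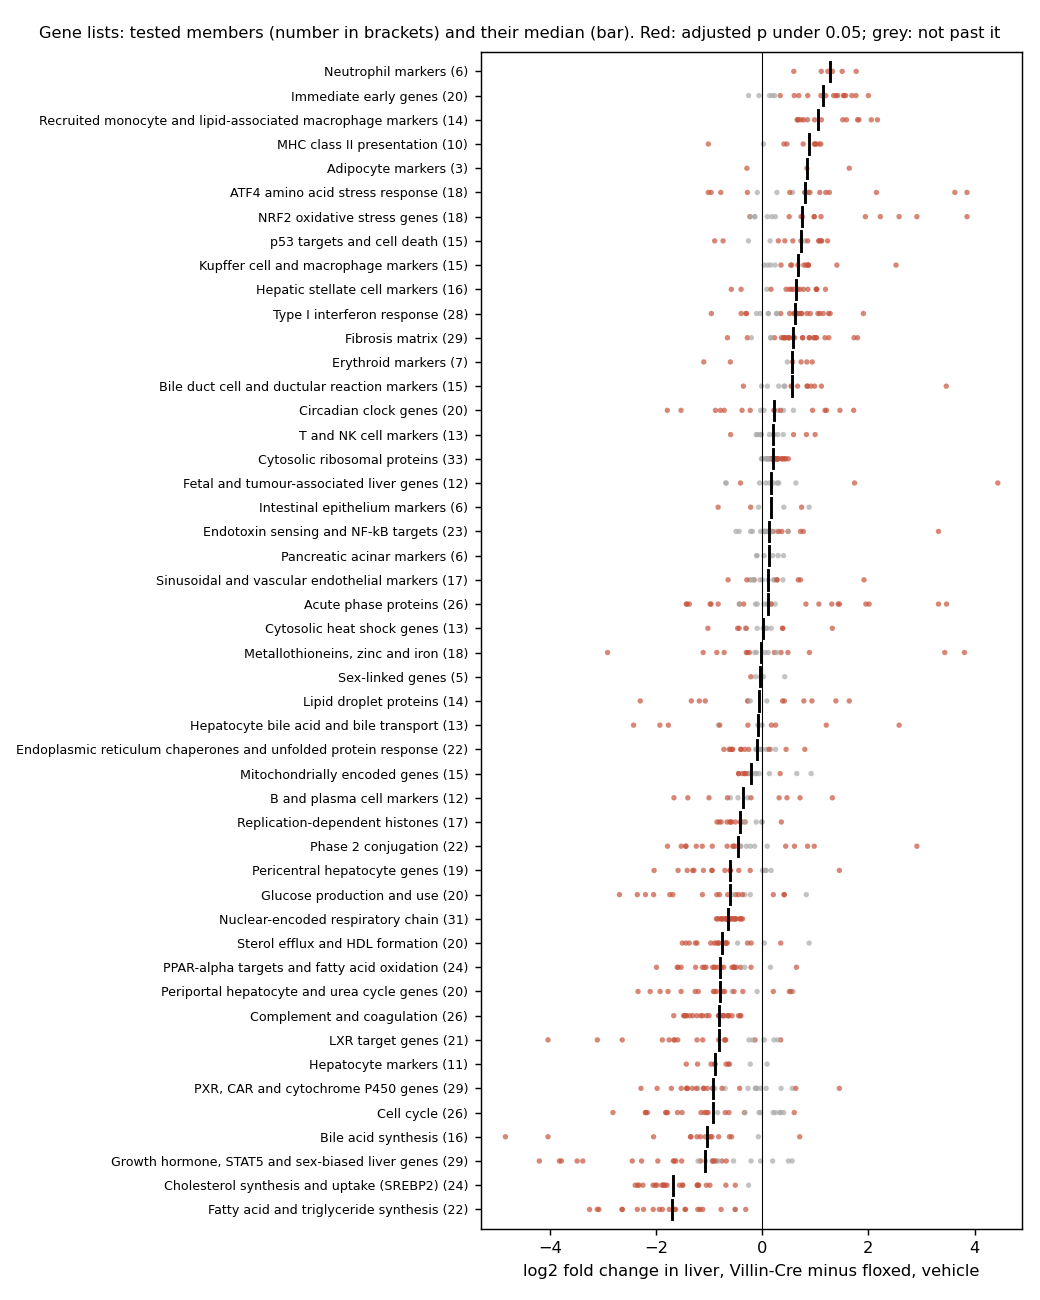
Log2 fold change (Villin-Cre minus floxed, liver, vehicle) of the tested members of 48 gene lists, each point a gene, red where the adjusted p was under 0.05, with the list's median as a bar. Fatty acid synthesis (-1.70) and cholesterol synthesis (-1.68) had the lowest medians, and immediate early genes (1.15) and neutrophil markers (1.28, from 6 tested genes) the highest.

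Markers of macrophages, stellate cells and matrix were higher. All 14 tested markers of recruited monocytes and lipid-associated macrophages rose, against 21.6% of all genes, with a median of 1.05. Gpnmb stood at 11.01, 11.5 and 12.1 CPM in floxed livers, against 49.5, 49.0 and 49.5 CPM in Villin-Cre liver (2.05, SE 0.066, adjusted p = 1.3e-11 in limma), and Trem2 at 5.29, 6.92 and 4.31 CPM against 17.3, 17.8 and 16.6 CPM (1.59). Of 15 markers of Kupffer cells, the resident macrophages, 11 rose and none fell (median 0.67), with Marco at 66.9, 61.4 and 61.0 CPM against 370.0, 372 and 351 CPM (2.52, SE 0.454) and Cd68 at 1.41. The resident-cell markers Clec4f (0.10) and Timd4 (0.24) did not pass, but did on the deposited scale (0.39 and 0.52). MHC class II genes rose in 8 of 10 cases (median 0.88). In bulk tissue, more cells of a type and more RNA per cell cannot be told apart.

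Of 29 matrix genes 24 rose and 2 fell (median 0.58). Col1a1, the main chain of fibrillar collagen, stood at 90.0, 93.0 and 94.2 CPM against 192, 188.5 and 185 CPM (1.02, SE 0.10, adjusted p = 1.0e-06 in limma), Thbs1 was at 1.80 and Timp1, an inhibitor of matrix proteases, at 1.73. Those that fell were Fn1 (-0.66), which hepatocytes also secrete, and Col14a1 (-0.28, or 0.01 on the deposited scale, where it did not pass). Stellate cell markers rose in 13 of 16 cases (median 0.63), with Acta2, the marker of their activation, at 3.76, 3.32 and 3.80 CPM against 8.57, 10.1 and 8.14 CPM (1.19). Duct markers rose in 8 of 15 cases (13 on the deposited scale), yet Krt19, which defines bile duct cells, did not pass (0.56, adjusted p = 0.063), except on the deposited scale (0.81). Endothelial markers rose in 5 of 17 cases and fell in 3, beside 21.6% and 22.2% of all genes. On the deposited scale 11 were higher and 1 lower, where 7894 and 2057 of all 17520 genes were. Lyve1 was at 1.92 and Clec4g at -0.21 (not passed, or 0.08 on the deposited scale).

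Hepatocyte markers were lower in 9 of 11 tested cases (median -0.89), with a summed level of 102800 to 105700 CPM in floxed and 60790 to 61070 CPM in Villin-Cre libraries. Alb stood at 63290, 60824 and 61425 CPM against 33254, 33363 and 33395 CPM (-0.89, SE 0.105, adjusted p = 7.3e-06 in limma). The summed macrophage markers were 1239 to 1249 CPM (Kupffer) and 295.5 to 305 CPM (monocyte) in floxed, and 2117 to 2175 and 632 to 647 CPM in Villin-Cre libraries. These marker levels separated the same libraries as the gene groups above, and their part in those results was not tested. All 6 tested neutrophil markers rose, at sums of 9.79 to 11.9 against 28.8 to 31.1 CPM, while Ly6g, Mpo, Elane and Camp lay under the minimum level. Of 13 T and NK cell markers 3 were higher and 1 lower, a share of higher genes near the 21.6% of all genes. Of 14 intestinal markers 6 were tested, of which Krt20 was higher (0.74) and Fabp2 (-0.83) and Lgals4 (-0.22, or 0.07 on the deposited scale) were lower. Their summed level rested on Apoa4, an apolipoprotein that liver also makes, and was 1874 to 1940 CPM in floxed and 3291 to 3424 CPM in Villin-Cre libraries. Apoa4 itself stood at 1830, 1773 and 1766 CPM against 3350, 3342 and 3220 CPM and did not pass in limma (0.88, adjusted p = 0.18). The spread in that fit comes from all 12 liver libraries. In the floxed GW3965 libraries the summed level ranged from 255.6 to 1494 CPM. The defining markers Cdx1 and Isx had no reads in either group, and Sis, Alpi and Cdx2 were near 0. With close libraries averaged, 4 of the 14 monocyte, 1 of the 11 Kupffer cell and 1 of the 24 matrix increases passed, and none of the hepatocyte, stellate cell, neutrophil or MHC class II calls did.

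Of 23 tested genes of endotoxin sensing and NF-kB targets, 7 were higher and none lower, with a median of 0.13. Of all tested genes 21.6% were higher and 22.2% lower. On the deposited scale 15 were higher and none lower (median 0.39), where 7894 of all 17520 genes were higher (median 0.26). Tlr4 stood at 5.37, 4.91 and 5.37 CPM against 8.61, 9.17 and 8.99 CPM (0.72, SE 0.139, adjusted p = 6.6e-04 in limma), while Tnf (0.49), Il1b (-0.22) and Ccl2 (0.14) did not pass. On the deposited scale Tnf passed (0.71) and Il1b was at 0.03. Type I interferon genes were higher in 18 of 28 cases and lower in 4 (median 0.62). Rsad2, an antiviral effector, stood at 14.2, 13.0 and 12.1 CPM against 49.1, 51.7 and 50.3 CPM (1.90, SE 0.09, adjusted p = 4.5e-10), Ifit1 at 4.19, 4.34 and 3.98 CPM against 9.30, 10.1 and 10.2 CPM (1.15), and the master regulator Irf7 at -0.31, or -0.02 on the deposited scale.

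Genes of mitosis were lower in Villin-Cre liver of mice given vehicle. Of 26 tested cell cycle genes 16 were lower and 1 higher (Ccne1, 0.60), with a median of -0.93. The window before Cdc20, the activator of the anaphase-promoting complex, is shown because it holds the core of the cell cycle genes homology region. Capitals mark TTTGAA, searched on both strands (RefSeq, GRCm38.p6, chr4:118437344-118437593, minus strand). This core lay in 6 of 21 matched members, among them the replication gene Mcm2, and in 13.6% of tested genes with a window.
Cdc20: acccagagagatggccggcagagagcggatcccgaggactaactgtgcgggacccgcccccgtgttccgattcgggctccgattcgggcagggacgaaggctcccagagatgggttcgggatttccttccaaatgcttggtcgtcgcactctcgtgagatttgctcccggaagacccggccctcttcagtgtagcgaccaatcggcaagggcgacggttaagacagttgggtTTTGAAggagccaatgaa
Cdc20 stood at 29.2, 27.2 and 27.9 CPM in floxed livers, against 3.72, 3.82 and 3.19 CPM in Villin-Cre liver (-2.81, SE 0.099, adjusted p = 2.4e-11 in limma). Mki67, a marker of cycling cells, stood at 70.3, 66.3 and 68.6 CPM against 19.1, 19.8 and 18.7 CPM (-1.80, SE 0.081). No Villin-Cre library came near the floxed range. Plk1 (-2.19), Ccnb1 (-2.16) and Ccnb2 (-2.20), which drive entry into mitosis, were lower too. The replication genes Mcm2 (0.33), Mcm3 (0.35), Mcm5 (-0.03), Mcm6 (0.20) and Pcna (0.25) did not pass. On the deposited scale Mcm2 (0.61) and Pcna (0.53) passed as higher, and Mcm5 was at 0.24.

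Circadian genes differed in both directions, with 7 of 20 higher and 7 lower, or 13 higher and 5 lower on the deposited scale. Of all tested genes 21.6% were higher and 22.2% lower, and on the deposited scale 7894 and 2057 of 17520 were. Arntl (BMAL1), the activator of the clock, stood at 19.9, 22.2 and 22.0 CPM in floxed livers, against 7.34, 6.54 and 7.36 CPM in Villin-Cre liver (-1.53, SE 0.10, adjusted p = 1.6e-08 in limma), and its relative Npas2 was at -1.79. The repressors Per1 (57.2, 56.2 and 55.6 CPM against 161, 157 and 151 CPM, 1.46) and Per2 (1.18) were higher. The groups were separate in all of these. Such genes vary with the hour of tissue collection, which the labels do not give for either group, so hour and genotype cannot be told apart here.

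The genotypes were also compared in livers of mice given GW3965, an LXR agonist, at 1 mg/kg, which share no library with the vehicle comparison. Of 17529 genes, 8947 were called there (51.0%). Of the 3781 genes higher with vehicle, 2634 (69.7%) were also called higher with GW3965, where 26.1% of all genes were, and they made up 57.6% of the 4573 genes higher with GW3965. Of the 3900 lower genes, 2715 (69.6%) were also called lower, where 25.0% of all genes were, and made up 62.1% of 4374. In 114 and 222 cases the call with GW3965 was in the opposite direction. All 30 leading genes kept their direction and 29 passed, the other being Chrna4 (-1.01, adjusted p = 0.14). Cyp7a1 was at 285 ± 123 CPM in floxed livers and 13.5 ± 1.37 CPM in Villin-Cre liver (SD, n = 3), a log2 fold change of -4.24 (adjusted p = 2.8e-09 in limma). Floxed GW3965 replicate 1 stood apart from its group.

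**Figure D4:**
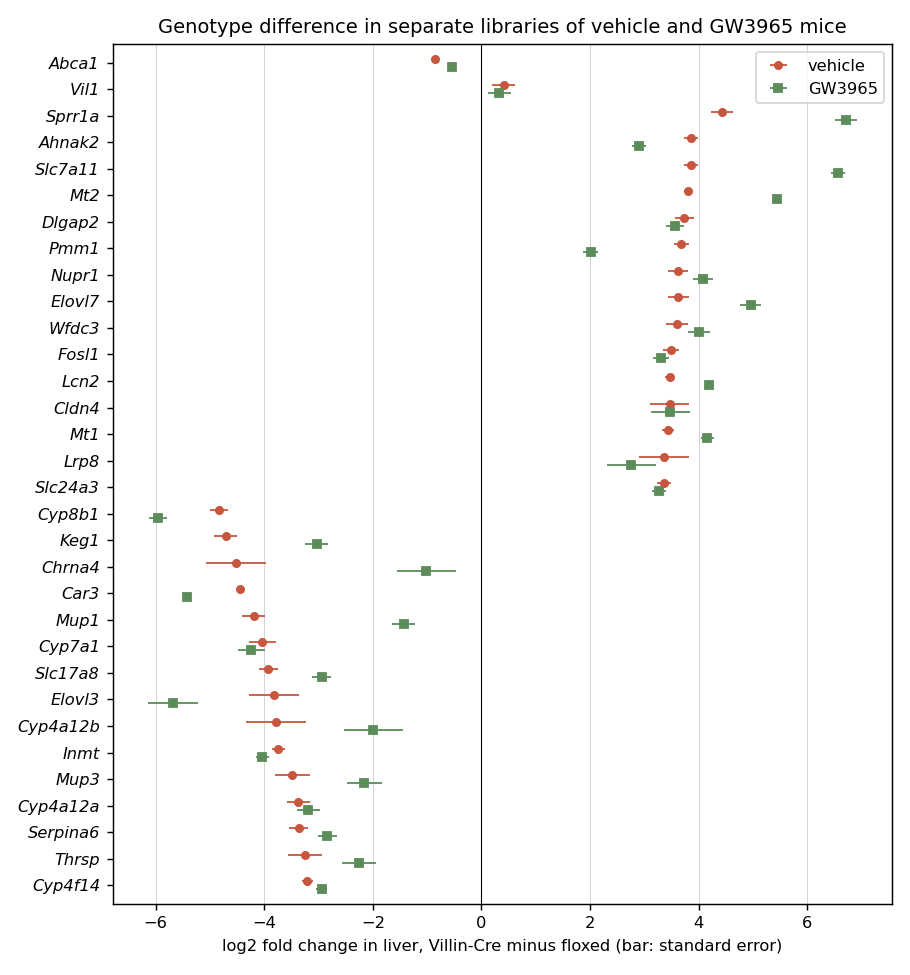
Log2 fold change of Abca1, Vil1 and the 30 leading genes in liver (Villin-Cre minus floxed) in mice given vehicle (circles) and GW3965 (squares), with standard errors. Slc7a11 was at 3.86 and 6.57, and Cyp8b1 at -4.84 and -5.96.

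For other groups of genes the genotype difference depended on treatment, by the interaction term, which passed for 3558 genes (20.3%) and for none with close libraries averaged. Of 22 genes of fatty acid synthesis, 15 were higher in the interaction and 1 lower. Scd1 averaged 35345 CPM in floxed vehicle liver, 9602 in Villin-Cre vehicle, 9318 in floxed GW3965 and 19391 in Villin-Cre GW3965 liver, an interaction of 2.94 (adjusted p = 4.8e-10 in limma). Of 26 cell cycle genes, 17 were higher in the interaction and 1 lower, where 2178 of all 17529 genes were higher and 1380 lower. In mice given GW3965, 8 of the 26 were higher in Villin-Cre liver and 2 lower (median 0.26). Mki67 averaged 68.4, 19.2, 21.7 and 28.0 CPM in the same order (2.17, adjusted p = 3.2e-08) and Cdc20 averaged 28.1, 3.58, 7.04 and 5.47 CPM (2.47). In Scd1, Mki67, Cdc20 and Ccnb1 the floxed vehicle group was thus above the other 3 groups. Of 28 interferon genes, 19 were lower in the interaction. Ifit1 averaged 4.17, 9.85, 12.6 and 9.40 CPM (-1.55, adjusted p = 6.8e-06), so for this gene the floxed vehicle group was the lowest. Cholesterol synthesis had none of 24 members past the interaction threshold, and its median with GW3965 was -1.30.

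**Figure D5:**
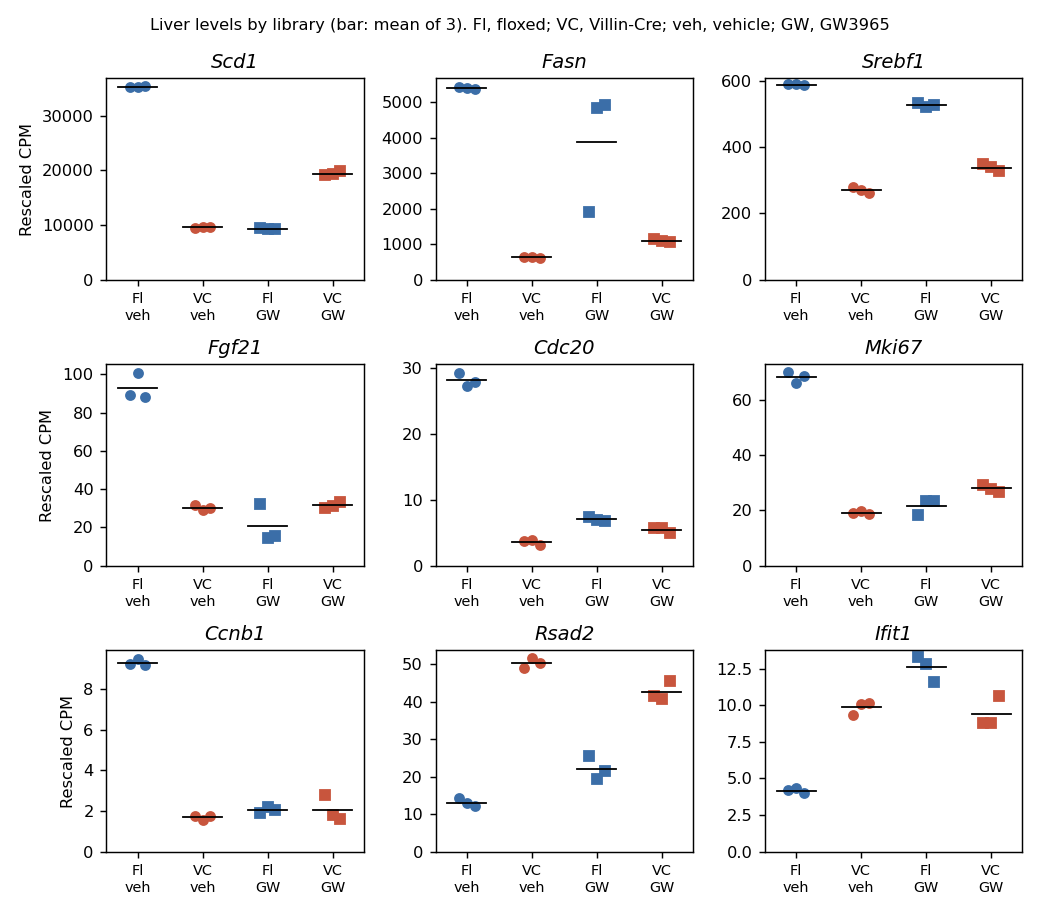
Rescaled CPM of 9 genes in each of the 3 libraries of the 4 liver groups, with the mean as a bar (axes start at 0). Scd1, Fgf21 and the mitotic genes Cdc20, Mki67 and Ccnb1 were highest in floxed vehicle liver, and Ifit1 was lowest there, while Srebf1 was lower in Villin-Cre liver under both treatments.

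The ileum, where the deletion was made, was set beside the liver for the leading genes. Of the 30, 20 were tested in the ileal table, 8 were called in the same direction and 5 in the opposite one, where 34.7% of ileal genes were called. Sprr1a rose in both tissues (1.48 in the ileum, from 0.538 to 2.33 CPM). Mt1 rose in the ileum as in the liver, from 95.0 to 596 CPM (2.65, adjusted p = 5.7e-14 in limma), while Mt2 fell there from 60.6 to 2.04 CPM (-4.59, adjusted p = 7.0e-14). The tables were normalised separately, and no test between tissues was made.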

How the data were processed

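Liver RNA was depleted of ribosomal RNA and sequenced in pairs of 150 bases, per the labels' protocols. The submitters' processing notes name bcl2fastq, STAR 2.5.1a, Subread and featureCounts 1.4.6-p5 with GRCm38. Not given in the sources used here are the strand setting and annotation release. Values were deposited by the authors on the log2 scale with a lowest value of -5.62. Of 40757 liver entries, 276 exact repeats were dropped, leaving 40481. Whole reads were recovered from the deposited low values (100% within 0.05 reads) and gave CPM and library totals. Of the recovered numbers 57.1 to 58.8% in the liver libraries were even, so intervals from counting error alone would be too narrow.

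Libraries were brought to 1 scale by the median ratio over 18525 genes. Differences were tested with limma 3.58.1 in R 4.3.3 after adding 0.5 to the CPM and taking log2. The model held all 12 liver libraries with a mean for each of the 4 groups, a mean-variance trend and p-values adjusted by Benjamini-Hochberg. A gene entered if 3 or more libraries reached 0.5 CPM. Fold changes are on this scale, which understates changes of low genes. On simulated data of this comparison (17529 genes), 95% of 100 genes changed 2-fold were recovered, and 3 unchanged genes were called. The simulated libraries were independent, with a spread like that within the vehicle groups, few changed genes and no outlying library. The simulation therefore cannot show how reliable the calls are if libraries of a group come from 1 animal.

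The named genes are Abca1, Vil1 and the 15 largest changes each way that passed without overlap and reached 1 CPM in the higher group, excluding receptor and antibody segments, pseudogenes and genes known only as predictions. Of each list, members among the 5 of smallest p are named, and further members for their role (regulators, defining enzymes and markers, and exceptions to a list's direction), the latter picked after their values were seen. The members, the 48 lists and the tests were chosen with earlier results of these data known.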

Additional observations from a re-analysis of the deposited data

Results flagged for a closer look

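The genotype difference in the liver was compared between vehicle and GW3965 libraries by the interaction term of limma (Villin-Cre minus floxed with GW3965, less the same with vehicle), and 14 of the 30 leading genes and Abca1 passed an adjusted p of 0.05. In 8 of the 14 the difference was larger with GW3965 and in 6 smaller. Among genes higher in Villin-Cre liver, the interaction was 2.71 for Slc7a11, 2.28 for Sprr1a, 1.63 for Mt2, 1.33 for Elovl7, 0.73 for Mt1 and 0.72 for Lcn2, while it was -0.97 for Ahnak2 and -1.68 for Pmm1. Among genes lower in Villin-Cre liver it was -1.12 for Cyp8b1 and -0.98 for Car3, and 3.51 for Chrna4, 2.76 for Mup1, 1.67 for Keg1 and 0.99 for Slc17a8. Mup1 averaged 9.17 CPM with vehicle and 0.909 CPM with GW3965 in floxed liver. In Villin-Cre liver it was near 0 with both, so the added 0.5 CPM limits its difference with GW3965. Chrna4 stood at 10.36, 90.3 and 88.59 CPM in the floxed GW3965 libraries. For Abca1 the interaction was 0.31, with levels of 361 ± 7.28 and 199 ± 1.20 CPM (SD, n = 3) with vehicle and 524 ± 16.9 and 358 ± 2.17 CPM with GW3965. No interaction passed with close libraries averaged.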

How the results depend on the processing

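The count of genes higher in Villin-Cre liver with vehicle (3781) was 7894 on the deposited scale, 7721 on the deposited log2 values and 108 with close libraries averaged, and that of lower genes (3900) was 2057, 2054 and 270. At least 2-fold, 598 higher genes became 1219, 1835 and 108, and 312 with a pseudocount of 2 and 942 with voom on recovered reads, while 829 lower genes became 520 on the deposited scale and 270 with close libraries averaged. Averaging also took the calls with GW3965 from 8947 to 1373 and those of the interaction from 3558 to 0 (545 at an unadjusted p under 0.05). Leaving out floxed GW3965 replicate 1 raised the interaction calls to 5773. For the vehicle comparison itself, leaving that library out gave 4608 higher and 4664 lower genes. A fit of the 6 vehicle libraries alone gave 4722 higher and 4723 lower genes. The share of genes called thus depends on libraries outside the comparison. Leaving out each vehicle library gave 3245 to 3371 higher and 3437 to 3474 lower genes. Same-numbered libraries did not deviate together (correlations of -0.01, 0.0 and 0.01, and 1 of 3 correlated best with its own number). Libraries of a group differ little beyond counting error, so this check could not settle whether the numbers pair libraries. With the replicate number as a block, 3736 genes were higher and 3871 lower. Of the 32 named genes, 7 lost their call with close libraries averaged (Abca1: -0.86, adjusted p = 0.15), 1 with voom, and Vil1 passed on the deposited scale (0.61). No value changed sign. The depth limits genes such as Vil1 and Mup1, with at most 289 reads in a vehicle library.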

Other observations

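Some gene families, grouped by symbol after the values were seen, are given as counts without a test. Of all tested genes, 21.6% were higher and 22.2% lower. The symbols also took in genes outside a family, among them integrin binding proteins, the antisense RNA Anxa11os and the pseudogenes Atp6v0c-ps2 and Ces2d-ps. Keratins rose in 6 of 9 tested cases with none lower, among them Krt8 (440.1 to 1705 CPM, 1.95) and Krt18 (289 to 836 CPM, 1.53), the keratin pair of hepatocytes. Annexins rose in 7 of 11 cases, with Anxa2 at 1.96 and Anxa5 at 1.02. Matrix metalloproteinases rose in 8 of 17 cases, with Mmp12, the macrophage elastase, from 16.4 to 121 CPM (2.85) and Mmp7 from 2.05 to 19.5 CPM (2.97). Genes with integrin symbols, not all of them integrins, rose in 15 of 31 cases, with Itgb3 at 1.61 and Itgb2 at 1.34. The dual-specificity phosphatases, only some of which switch off MAP kinases, rose in 13 of 20 cases and fell in 3, with Dusp4 at 2.40.

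Carboxylesterases, which hydrolyse drugs and lipids, fell in 15 of 17 cases with a median of -1.05, the values being -3.12 for Ces3b and -2.97 for Ces3a. UDP-glucuronosyltransferases fell in 16 of 21 cases with none higher (median -0.66). Cytochrome P450 genes of all families fell in 53 of 86 cases and rose in 5 (median -0.77). Genes with symbols of the lysosomal proton pump rose in 12 of 18 cases by small amounts (median 0.38), including the pseudogene Atp6v0c-ps2 (0.29). Cytosolic ribosomal protein genes rose in 22 of 33 cases (median 0.21, or 0.49 on the deposited scale, where all 33 passed). On that scale 7894 of all 17520 tested genes were higher, with a median of 0.26.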
